A study of Mus musculus with 2 samples.

Results

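The alpha and beta tubulin genes described here are Tuba1a, Tuba1b, Tuba1c, Tubb2a, Tubb2b, Tubb3, Tubb4a, Tubb4b, Tubb5 and Tubb6, which are 10 of the 43346 Ensembl genes in the deposited tables and 10 of the 21461 nuclear protein-coding genes. They were chosen by name and found through their Ensembl identifiers, and their values come from both the gene tables and the transcript tables. The series measured total RNA of the hindbrain (cerebellum, pons and medulla) of newborn mice at postnatal day 0 in 2 libraries, which form 1 group. The mice were of the strain B6NTac;B6NCrl/Lap, with neither a mutation nor a treatment named, males and females were pooled, and the labels give 15 mice for replicate 1 and no number for replicate 2. RNA over 200 nt was kept after removal of ribosomal RNA, spike-in RNA was added, and both ends of the fragments were read with strand kept. The libraries are labelled as separate isolates, yet both carry 1 donor identifier, and some of the difference between them may therefore be technical.

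Microtubules are hollow polymers built from heterodimers of 1 alpha-tubulin and 1 beta-tubulin. Newborn brain holds many neurons that are extending axons and dendrites, which are filled with microtubules, beside progenitors that build mitotic spindles and ciliated cells that build axonemes. Each class of tubulin is encoded by several genes. Their products differ at sites that include the acidic tail at the carboxyl end. There enzymes add and remove glutamates and, on alpha-tubulin, a final tyrosine.

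The tails of 6 beta genes are shown as coding sequence because enzymes add and remove glutamates there. Some, but not all, of the differences between isotypes lie in them. Each line gives the last 20 codons and the stop codon of the main transcript, read 5′ to 3′ from the GENCODE M21 transcripts (genome build GRCm38), and the capitals mark the glutamate codons GAA and GAG in frame.
Tubb2a: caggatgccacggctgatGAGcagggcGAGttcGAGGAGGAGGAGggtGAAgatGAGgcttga
Tubb2b: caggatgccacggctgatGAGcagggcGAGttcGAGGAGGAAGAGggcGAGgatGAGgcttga
Tubb3: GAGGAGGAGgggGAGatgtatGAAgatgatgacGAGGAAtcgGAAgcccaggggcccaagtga
Tubb4a: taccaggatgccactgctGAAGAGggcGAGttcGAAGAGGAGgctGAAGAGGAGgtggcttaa
Tubb4b: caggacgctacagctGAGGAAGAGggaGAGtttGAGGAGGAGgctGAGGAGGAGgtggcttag
Tubb5: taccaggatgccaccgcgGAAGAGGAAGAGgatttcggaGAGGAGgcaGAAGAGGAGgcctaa

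Among these genes the number of glutamate codons in the last 20 runs from 8 in Tubb2a, Tubb2b and Tubb3 to 9 in Tubb4a and Tubb5 and 10 in Tubb4b. With aspartate codons added, the number of acidic codons was 10 in Tubb4a and 11 in each of the others shown. Tubb3 is the only gene shown whose last codon is a lysine codon, AAG, and the 5 others end in an alanine codon, GCT or GCC. Tubb2a and Tubb2b differ here only in synonymous bases. The 2 residues in which their translated sequences differ therefore lie outside this stretch.

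The first 4 codons are shown because the amino end is where nascent tubulin is recognised when cells adjust tubulin mRNA to free protein levels. This step works through the protein of Ttc5. In all the genes listed next these codons encode the same 4 residues, methionine, arginine, glutamate and isoleucine. The differences between their bases are therefore synonymous. The beta genes Tubb2a, Tubb2b, Tubb3, Tubb4a, Tubb4b and Tubb5 have ATGCGCGAGATC, ATGCGAGAGATC, ATGAGGGAGATC, ATGCGGGAAATC, ATGAGGGAGATC and ATGAGGGAAATC, so only Tubb3 and Tubb4b have the same 12 bases.

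All 10 genes were detected, at 1 TPM or more in both libraries (TPM is a share of all transcripts, corrected for transcript length), as were 54.6% of the 21461 protein-coding genes. Coding genes are the nuclear ones here and below, and genes of mitochondrial DNA were not ranked. Among nuclear coding genes Tuba1a had the highest level, and Tubb2a, Tubb2b, Tubb3, Tuba1b and Tubb5 held places 6, 9, 11, 13 and 16. These 6 genes gave 97.5% of the members' summed TPM in replicate 1 and 97.6% in replicate 2. The 10 genes together made up 4.57% and 4.58% of the TPM of protein-coding genes, and 3.37% and 3.41% of their expected counts. With 2 libraries of 1 group, no test is given, since the lowest p that an exact sign-flip test allows is 0.5, and levels are stated as mean ± SD over the libraries.

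TPM was higher in replicate 1 than in replicate 2 for every member, by 1.33-fold for Tuba1b to 1.79-fold for Tubb6. Beside this, nuclear protein-coding genes held 28.1% of all TPM in replicate 1 and 19.3% in replicate 2. Levels were therefore also expressed relative to the summed TPM of coding genes (set to 1000000 in each library), called coding-scaled below, and on this scale the libraries lay closer together. The summed coding-scaled level of the 10 genes was 45750 in replicate 1 and 45787 in replicate 2.

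**Figure D1:**
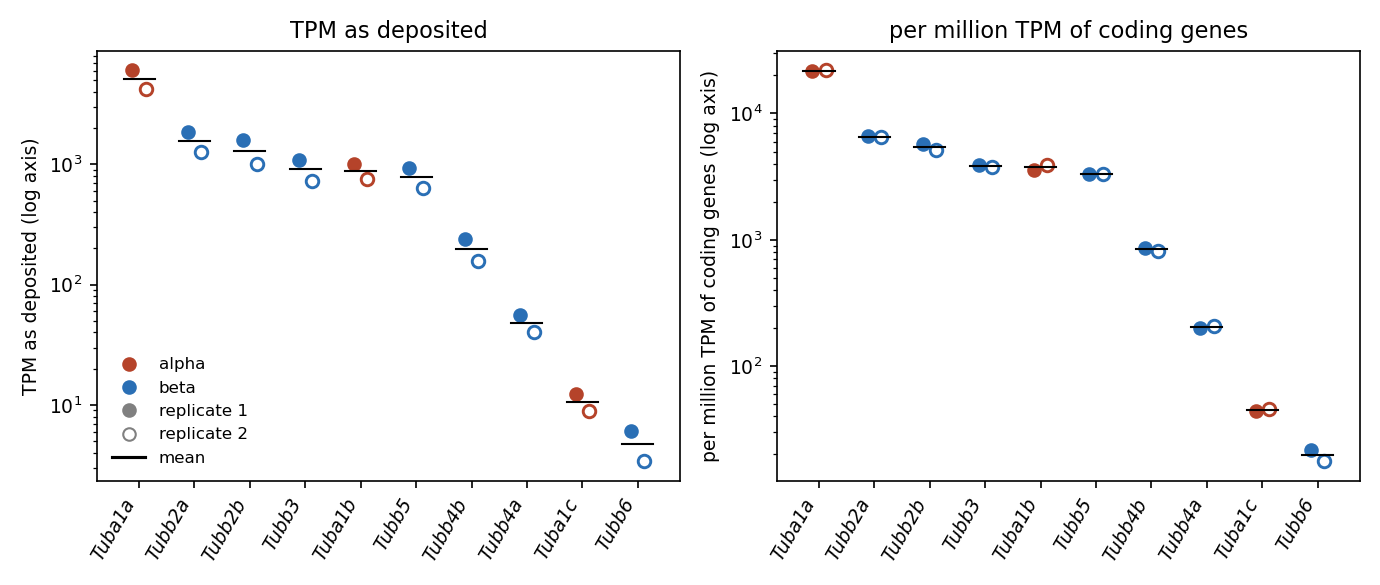
Level of each tubulin gene in replicate 1 (filled) and replicate 2 (open), as TPM on the left and relative to the TPM of coding genes on the right, both on log axes, with the mean as a line (alpha genes red, beta genes blue). TPM runs from 6050 and 4229 for Tuba1a to 6.07 and 3.40 for Tubb6, and replicate 2 lies below replicate 1 for every gene on the left only.

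Among the alpha genes, Tuba1a (ENSMUSG00000072235.5), the main alpha-tubulin of neurons that are growing processes, had 6050 TPM in replicate 1 and 4229 TPM in replicate 2 (5140 ± 1287, SD, n = 2). Its coding-scaled level was 21562 and 21970. Tuba1a gave 85.2 ± 0.635% of the TPM of the 3 alpha genes. It was thus the largest single source of alpha-tubulin transcripts among them in both libraries.

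Tuba1b (ENSMUSG00000023004.8), an alpha-tubulin used widely in dividing and resting cells, had 1002 and 753 TPM (878 ± 176, SD, n = 2). On the coding scale it was the member with the largest relative excess in replicate 2 among the 6 highest genes, at 3573 against 3911. Its share of alpha TPM was 14.2% in replicate 1 and 15.1% in replicate 2. Tuba1c (ENSMUSG00000043091.8), a further widely used alpha-tubulin, had 12.4 and 8.84 TPM (10.6 ± 2.52, SD, n = 2) and 0.176 ± 0.00113% of alpha TPM. In these data Tuba1c was thus a minor transcript of a class led by Tuba1a.

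Among the beta genes, Tubb2a (ENSMUSG00000058672.6) led with 1848 and 1260 TPM (1554 ± 416, SD, n = 2), and Tubb2b (ENSMUSG00000045136.5) followed with 1602 and 998 TPM (1300 ± 427, SD, n = 2). Both encode beta-tubulins abundant in brain, and Tubb2b is also known from radial glia and migrating neurons. Together they held 59.8% of beta TPM in replicate 1 and 59.1% in replicate 2. The coding-scaled level of Tubb2a was 6587 and 6547, and that of Tubb2b was 5710 and 5185, so the libraries differed more for Tubb2b.

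Tubb3 (ENSMUSG00000062380.3), the beta-tubulin used as a marker of neurons, had 1094 and 726 TPM (910 ± 260, SD, n = 2). Its share of beta TPM was 18.96% in replicate 1 and 18.99% in replicate 2, the closest agreement in points of any of the 4 highest beta genes. Tubb5 (ENSMUSG00000001525.10), found in most cells and prominent in progenitors, had 924 and 637 TPM (780 ± 203, SD, n = 2) and 16.3 ± 0.463% of beta TPM. In this bulk tissue, fewer cells of a type and less RNA per cell cannot be told apart.

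The 3 lower beta genes spanned a wide range. Tubb4b (ENSMUSG00000036752.4), a widely used beta-tubulin that is also the one of ciliary axonemes, had 241 and 158 TPM (200 ± 58.4, SD, n = 2), or 4.16 ± 0.0241% of beta TPM. Tubb4a (ENSMUSG00000062591.5), known from mature neurons and myelinating oligodendrocytes, had 56.0 and 40.0 TPM (48.0 ± 11.3, SD, n = 2), or 1.01 ± 0.0537%. Tubb6 (ENSMUSG00000001473.6), a beta-tubulin better known outside the brain, had 6.07 and 3.40 TPM (4.74 ± 1.89, SD, n = 2) from 717 and 820 expected counts, or 0.0971 ± 0.0115%. The range from Tuba1a to Tubb6 was 997-fold in replicate 1 and 1244-fold in replicate 2.

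Ratios within a library do not depend on its TPM scale, so they were used to order the levels. Neighbours in the order were taken to differ beyond the spread when the mean log2 ratio of TPM exceeded 2 SD and the deposited TPM intervals did not overlap in either library. By this rule 8 of 9 neighbouring pairs differed, and 8 of 10 genes held the same place in both libraries. Tuba1a lay 3.31-fold above Tubb2a (log2 ratio 1.73 ± 0.03, SD, n = 2), Tubb2a lay 1.21-fold above Tubb2b (0.27 ± 0.09) and Tubb2b lay 1.42-fold above Tubb3 (0.50 ± 0.06). Tubb3 and Tuba1b did not differ beyond their spread (0.04 ± 0.13), with Tubb3 higher by 0.13 in replicate 1 and lower in replicate 2, at -0.05.

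Below them Tuba1b exceeded Tubb5 by 1.13-fold (log2 ratio 0.18 ± 0.09, SD, n = 2), a difference that no longer exceeded 2 SD when length replaced effective length (0.08) or when the nearest interval bounds were compared (0.16). Steps of about equal size then followed, with Tubb5 3.93-fold above Tubb4b (1.97 ± 0.05), Tubb4b 4.13-fold above Tubb4a (2.04 ± 0.09) and Tubb4a 4.52-fold above Tuba1c (2.177 ± 0.00187). Tuba1c lay 2.30-fold above Tubb6 (1.20 ± 0.25), by 2.04-fold in replicate 1 and 2.60-fold in replicate 2. Tubb2a, Tubb2b, Tubb3, Tuba1b and Tubb5 thus lay within 1.42-fold of their neighbours in this group, while Tuba1a above them and the 4 genes below them were each separated by 2.30-fold or more.

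The summed TPM of the 3 alpha genes exceeded that of the 7 beta genes by 1.22-fold in replicate 1 and 1.31-fold in replicate 2 (1.26 ± 0.0576, SD, n = 2). In expected counts, which are not divided by length, the ratio was 1.03 and 1.11. The excess of alpha over beta was thus present on both scales in both libraries, and it was smaller in counts.

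Between the libraries, none of the 10 genes had a log2 ratio (replicate 2 over replicate 1, TMM-scaled counts) of 0.5 or more in size, against 28.1% of the 17632 genes whose mean count was 10 or more. Most members are counted far more deeply than the typical gene, and among the 8832 genes whose mean count reached 1000 the share was 3.66% and the median size of the ratio was 0.13. The members' median was -0.03 and that of all genes tested 0.01. The median was -0.06 for the 1001 genes with mean counts from 10000 to 30000, members included, and -0.09 for the 154 genes from 30000 to 100000. At 100000 or more there were 27 genes, among them Tuba1a, Tuba1b, Tubb2a, Tubb2b, Tubb3 and Tubb5. Their median of -0.03 was the value of Tubb2a itself, so it is no separate background. Of the 10 members 6 lay below 0, as did 49.4% of the genes tested. Of these 6, Tubb2a, Tubb3, Tubb4b and Tubb5 lay above 0 when spike-in totals set the scale, under which the median of all genes was 0.11.

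Tuba1a had a ratio of 0.01, with 656953 and 942480 expected counts behind it, and Tubb2a and Tubb5 were both at -0.03. Tuba1c and Tubb4a were both at 0.03, and Tubb3 and Tubb4b were at -0.07 and -0.08. The largest ratios were those of Tubb6 at -0.31 (95% interval for counting error only -0.46 to -0.17), Tubb2b at -0.16 (-0.17 to -0.15) and Tuba1b at 0.11 (0.10 to 0.12). Beside the Tubb6 value, 4 of 5 skeletal muscle markers were lower in replicate 2, with none at 0 in both libraries. The same was true of 4 of 5 hindbrain and 4 of 5 endothelium markers, so this count does not set muscle apart from them. The median log2 ratio was -2.43 for the 4 muscle markers tested, against -0.05 for hindbrain and -0.13 for endothelium. The summed coding-scaled level of the muscle markers was 182 in replicate 1 and 30.2 in replicate 2 (51.0 and 5.81 TPM). The part of the muscle markers in the Tubb6 value was not tested.

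**Figure D2:**
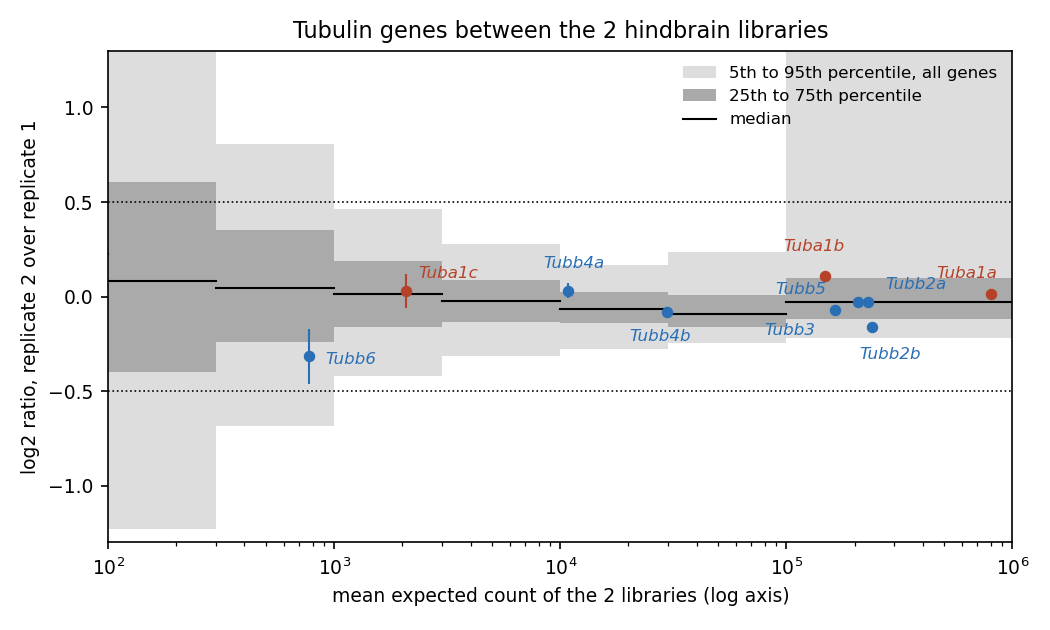
Log2 ratio of replicate 2 over replicate 1 for each tubulin gene against its mean expected count (log axis), with bars for counting error, over the 5th to 95th and 25th to 75th percentiles and median of all genes in bins of mean count, and dotted lines at a size of 0.5; the widest bands run past the axis. All 10 genes lie between the dotted lines, from -0.31 for Tubb6 to 0.11 for Tuba1b.

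Marker genes were described beside the tissue label. The cut of 1 TPM in both libraries was passed by 54.6% of all coding genes. No markers of other brain regions were listed, so the label itself was not tested. All 5 hindbrain markers (Hoxa2, Hoxa5, Hoxb2, Hoxb3 and En2) and all 5 neuron markers reached 1 TPM in both libraries, as did the 5 markers each of dividing cells, of radial glia and astrocytes, of the oligodendrocyte lineage, of microglia, endothelium, red blood cells and meninges. Of the 5 markers of ependyma and motile cilia only Foxj1 did, and of the 5 of skeletal muscle only Acta1 did. Summed neuron markers had 445 and 308 TPM, or 1584 and 1598 on the coding scale, and summed markers of dividing cells had 75.2 and 56.0 TPM, or 268 and 291 on the coding scale.

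How far tubulin genes can be told apart depends on how much sequence they share. The coding sequences of the 3 alpha genes were 97.1 to 98.3% identical over their aligned length, and Tuba1a and Tuba1b differed at 23 of 1356 bases. Tubb2a and Tubb2b were 96.5% identical, with 47 of 1338 bases different. Over all 21 pairs of beta genes coding identity ran from 80.2 to 96.5% with a median of 83.5%, and between alpha and beta genes it was 54.8 to 57.1%.

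The translated sequences differed less. Tuba1a and Tuba1b differed in 2 residues, Tuba1c differed from each of them in 8, and Tubb2a and Tubb2b differed in 2. Tubb4a and Tubb4b, which are encoded on different chromosomes, differed in 7 residues although 225 of their 1338 aligned coding bases differed. Among beta pairs translated identity ran from 90.2 to 99.6%, and the lowest value was that of Tubb2a with Tubb6, at 44 residues.

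The first 60 coding bases of Tubb2a and Tubb2b are shown because they let a reader see what separates reads from these close copies. Capitals mark bases of Tubb2b that differ from Tubb2a.
Tubb2a: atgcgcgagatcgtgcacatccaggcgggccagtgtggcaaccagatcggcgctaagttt
Tubb2b: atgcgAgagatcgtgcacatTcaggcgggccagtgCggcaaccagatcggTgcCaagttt
In this stretch Tubb2b had 5 differences from Tubb2a, against 47 over the 1338 bases of the whole coding sequence. The stretch is thus richer in differences than the whole and does not stand for the parts that the genes share.

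The longest identical coding run was 551 nt between Tubb2a and Tubb2b, 468 nt between Tuba1b and Tuba1c, 446 nt between Tuba1a and Tuba1c and 281 nt between Tuba1a and Tuba1b. No other pair of members shared a run of the length of a read, and the longest run between any alpha and any beta gene was 18 nt. Sharing was measured against the annotated genes that were also quantified here, so Gm49450, which overlaps Tuba1a and Tuba1b, was left out. It was the share of windows as long as a read in each main transcript that occur on the same strand in another such gene. This share was 65.4% for Tuba1b, 53.3% for Tuba1c, 49.1% for Tuba1a, 35.8% for Tubb2a, 28.8% for Tubb4b and 25.9% for Tubb2b, and it was 0 for Tubb3, Tubb4a, Tubb5 and Tubb6.

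All shared windows touched the coding sequence, and no window lying within an untranslated region was shared in any member. For windows wholly inside the coding sequence the share reached 85.6% in Tuba1b, 80.2% in Tuba1c and 66.6% in Tuba1a. Tubb2a and Tubb2b shared 540 windows, with each other only. The windows of Tubb4b were shared with the processed pseudogenes Tubb4b-ps1, Tubb4b-ps2 and Gm16165, and those of the alpha genes with each other and with 6 processed pseudogenes (Gm14150, Gm15599, Gm17383, Gm3756, Gm5620 and Gm6682).

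**Figure D3:**
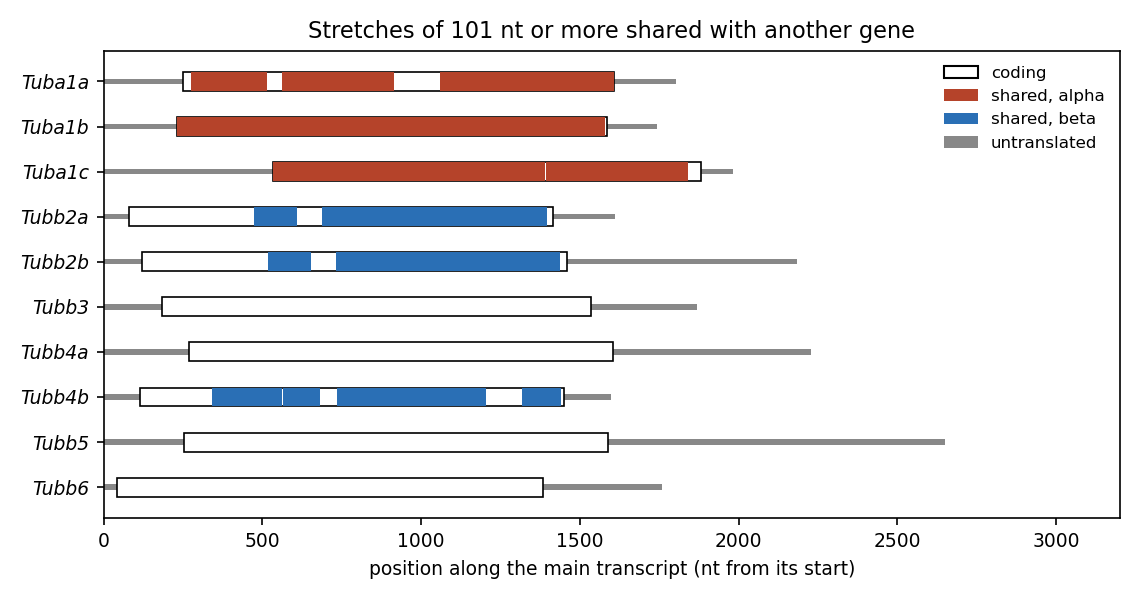
Main transcript of each gene from its start, with the untranslated regions as grey lines and the coding sequence as a box. Stretches found in another quantified gene over at least the length of a read are filled (alpha red, beta blue). The filled stretches cover nearly the whole coding box of Tuba1b and Tuba1c and most of it in Tuba1a. They cover parts of it in Tubb2a, Tubb2b and Tubb4b, and none of it in Tubb3, Tubb4a, Tubb5 and Tubb6.

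The deposited counts were whole or fractional gene by gene as this sharing was absent or present. Tubb3, Tubb4a, Tubb5 and Tubb6, which share no window, had whole counts (for Tubb3 139276 and 188643) and a posterior SD of the count of 0 at the gene level. Tubb2a and Tubb2b had fractional counts, 192249.14 and 210996.86 in replicate 1, whose sum was the whole number 403246, and in replicate 2 their sum was 536601. Their posterior SDs were the same number for both genes, 231 in replicate 1 and 280 in replicate 2, which was 0.104 to 0.120% of their counts.

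The 3 alpha genes and the 6 pseudogenes likewise summed to 775562 and 1124342 counts, within 0.01 of a whole number. The pseudogenes held 253 and 424 of these, led by Gm14150 with 171 and 255. The posterior SD was largest relative to the count for Tuba1c, at 1.62% and 1.42%, against 0.0355% and 0.0317% for Tuba1b and 0.00538% and 0.00517% for Tuba1a. Tubb4b and its 3 pseudogenes summed to 25202 and 33909, with 3.50 and 6.96 counts outside Tubb4b, all at Tubb4b-ps1. The division of reads thus adds little stated uncertainty to any member but Tuba1c, as far as the deposited posterior SD measures it.

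Tubb2a and Tubb2b show what length does to an order. In expected counts Tubb2b exceeded Tubb2a in replicate 1 (ratio of Tubb2a to Tubb2b 0.911) and the genes were level in replicate 2 (1.0002), while per length Tubb2a was higher in both (1.15 and 1.26). The Tubb2b transcript used by the authors is 1922 nt long and that of Tubb2a 1584 nt. In the later annotation release M21 the Tubb2b transcript is 260 nt longer, and dividing the same counts by M21 lengths gave a log2 ratio of Tubb2a over Tubb2b of 0.46 in place of 0.27, an alternative chosen after seeing the data.

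The transcript tables held 17 transcripts of the 10 genes, 1 each for 6 genes and several for Tuba1a, Tuba1b, Tubb4b and Tubb5. The main transcript gave 99.1% and 99.6% of the gene's TPM for Tuba1a, 99.3% in both libraries for Tuba1b, 99.05% and 99.1% for Tubb4b, and 97.8% and 97.2% for Tubb5. None of the 7 minor transcripts reached 5% of its gene in either library. The highest was Tubb5-204, annotated as a retained intron, with 1.63% and 1.74%, and the other retained-intron transcript of Tubb5, Tubb5-203, had 0.40% and 0.64%.

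A transcript that the authors' annotation counts to Tuba1a, with 12.8 and 2.64 TPM or 0.21% and 0.06% of the gene, belongs in release M21 to the separate gene Gm49450. Each main transcript has 4 exons in M21.

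In genome build GRCm38 the 3 alpha genes lie in 1 cluster of 106686 nt on chromosome 15. Tuba1b (98931425 to 98934565) and Tuba1a (98949837 to 98953703) are on the minus strand, 15271 nt apart, and Tuba1c (99029891 to 99038110) is on the plus strand 76187 nt beyond Tuba1a. The nuclear coding gene with the highest level and the lowest alpha member are thus cluster neighbours. Tubb2a (34074274 to 34078007) and Tubb2b (34126748 to 34130466) lie 48740 nt apart on the minus strand of chromosome 13.

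The other beta genes are dispersed. Tubb4b lies on chromosome 2 (25222160 to 25224702, minus), Tubb3 on chromosome 8 (123411424 to 123422015, plus), Tubb5 (35833921 to 35838306, minus) and Tubb4a (57080066 to 57087782, minus) on chromosome 17, and Tubb6 on chromosome 18 (67390717 to 67402749, plus). The whole Tubb3 locus lies inside Gm20388 on the same strand, which had 4854 and 8243 expected counts or 16.3 and 13.6 TPM, beside 1094 and 726 TPM for Tubb3. Tubb4b overlaps Fam166a on the opposite strand by 121 nt, and Fam166a had 0 counts in both libraries. Tuba1a and Tuba1b overlap Gm49450 on the same strand, and Tuba1b overlaps Gm41396 on the opposite strand by 241 nt, both genes of the later release that are not rows of the tables used here.

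The other tubulin genes were low in sum, though single ones reached the level of the lower members. Of 10 other tubulin genes 3 reached 1 TPM in both libraries, and the 10 together had 0.622% and 0.744% of the members' summed TPM. Tuba4a, an alpha-tubulin of mature tissues, had 50.6 and 45.0 TPM (47.8 ± 4.002, SD, n = 2), which lies between Tubb4b and Tuba1c and beside Tubb4a. Gamma-tubulin, which nucleates microtubules, is encoded by Tubg1 and Tubg2, which had 16.6 and 13.1 TPM and 11.4 and 5.69 TPM.

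The delta- and epsilon-tubulins of centrioles, Tubd1 and Tube1, had 0.49 TPM in both libraries and 0.34 and 0.44 TPM. Tuba8 had 0.38 and 0.69 TPM. Tubb1, the beta-tubulin of platelets, had 2 and 37 counts. Beside it, the 5 red blood cell markers were all higher in replicate 2 on the coding scale, with a sum of 3343 and 4436, while their summed TPM was 938 and 854 and Hba-a2 and Hbb-bs were lower in TPM, and their part in the Tubb1 value was not tested. The testis-associated Tuba3b had 3 and 0 counts, and Tuba3a and Tubal3 had 0 counts in both libraries, which allows levels of up to 0.0307 and 0.0150 TPM for Tuba3a and up to 0.0132 and 0.00648 TPM for Tubal3 by a limit of 3 counts.

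Genes that make and modify tubulin were described from 10 lists of 69 genes with the other tubulins included. Of these 69 genes 55 reached 1 TPM in both libraries, beside 54.6% of all coding genes. New tubulin is folded in the CCT chaperonin, to which prefoldin delivers it, and is joined into heterodimers by the folding cofactors. All 8 CCT subunit genes were detected with a median of 46.5 TPM, against a median of 2.07 TPM over all coding genes. Tcp1 was highest (142 and 59.5 TPM), followed by Cct5 (70.4 and 53.7), Cct3 (65.4 and 44.2) and Cct2 (64.2 and 43.0), and Cct8 (38.0 and 17.5) and Cct6a (24.5 and 20.4) were lowest.

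All 6 prefoldin genes were detected with a median of 13.4 TPM, from Pfdn5 (33.3 and 26.9 TPM), Pfdn4 (26.4 and 13.0), Vbp1 (24.2 and 10.9) and Pfdn1 (12.6 and 6.15) to Pfdn6 (12.01 and 4.73) and Pfdn2 (3.33 and 2.50). Pfdn6 had a log2 ratio between libraries of -0.74 and the prefoldin median was -0.36, while the CCT median was -0.06. All 7 folding cofactor genes were detected with a median of 19.9 TPM, led by Tbcb (34.4 and 24.6), Tbcd (30.7 and 19.8), Arl2 (30.2 and 19.4) and Tbca (25.03 and 14.8), with Tbcc (7.20 and 7.22) and Tbcel (4.46 and 3.22) lowest. Tbcb binds alpha-tubulin, Tbca binds beta-tubulin, and Arl2 is the small GTPase that works with Tbcd.

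Of the enzymes of the alpha tail, those of the tyrosine cycle were all present. Ttl, the ligase that puts the final tyrosine back, had 17.0 and 11.04 TPM. Vash1 and Vash2, the carboxypeptidases that remove it, had 31.9 and 20.9 TPM and 10.8 and 7.82 TPM, and their partner Svbp had 18.1 and 7.84 TPM. Atat1, which acetylates alpha-tubulin inside the microtubule, had 47.1 and 31.3 TPM, and the deacetylases Hdac6 and Sirt2 had 27.3 and 20.1 TPM and 25.9 and 18.3 TPM. The median of the 7 genes was 22.1 TPM.

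Enzymes that add glutamate or glycine to the tails were lower, with 8 of 12 detected and a median of 2.76 TPM. Tpgs1, a subunit of the glutamylase complex, was highest (34.9 and 23.3 TPM), followed by the catalytic subunit of that complex, Ttll1 (10.1 and 7.73), by Ttll7 (9.36 and 5.81), a glutamylase of beta-tubulin, and by the glutamylase Ttll4 (7.25 and 6.37). Ttll8 (0.03 in both) and Ttll10 (0 and 0.05 TPM, from 0 and 3 counts), both glycylases, were lowest. The deposited upper bounds for Ttll10 were 22.9 and 7.39 TPM, so its place in the list is uncertain.

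Of the peptidases that trim glutamates from the tails 3 of 6 were detected, which is near the 54.6% of all coding genes. Agtpbp1, the enzyme lost in Purkinje cell degeneration mice, had 31.2 and 28.8 TPM, Agbl5 had 13.4 and 8.87 TPM and Agbl3 had 3.42 and 2.54 TPM. Agbl4 had 1.18 TPM in replicate 1 and 0.54 TPM in replicate 2, and Agbl2 (0.20 and 0.05) and Agbl1 (0.01 and 0.14) were lowest. Ttc5, which acts on tubulin mRNAs through the amino end of the new protein, had 18.5 and 15.2 TPM.

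Genes that act on the polymer or on free dimers completed the set. All 8 genes of the gamma-tubulin ring were detected with a median of 12.5 TPM. By mean TPM they ran from Tubgcp3 (27.8 and 7.66 TPM), Mzt1 (20.5 and 13.99), Mzt2 (16.1 and 13.4) and Tubgcp2 (15.9 and 10.1) to Tubgcp5 (3.67 and 2.99) and Nedd1 (1.3 in both). In replicate 2, however, Tubgcp3 lay below Mzt1, Mzt2 and Tubgcp2. Its expected counts were 3000 and 3876, a log2 ratio between libraries of -0.14. At its effective length 3 counts stood for 0.0278 TPM in replicate 1 and 0.00593 TPM in replicate 2, against 0.0189 and 0.00926 for Mzt1. The reason for the wider gap in TPM of Tubgcp3 was not tested. The 4 stathmins, which bind tubulin dimers, had the highest list median, 119.6 TPM, with Stmn3 at 341 and 242 TPM, Stmn1 at 186 and 144, Stmn2 at 85.9 and 62.2 and Stmn4 at 37.0 and 23.5. Every gene of these lists thus lay below Tubb5, the lowest of the 6 leading tubulin genes.

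**Figure D4:**
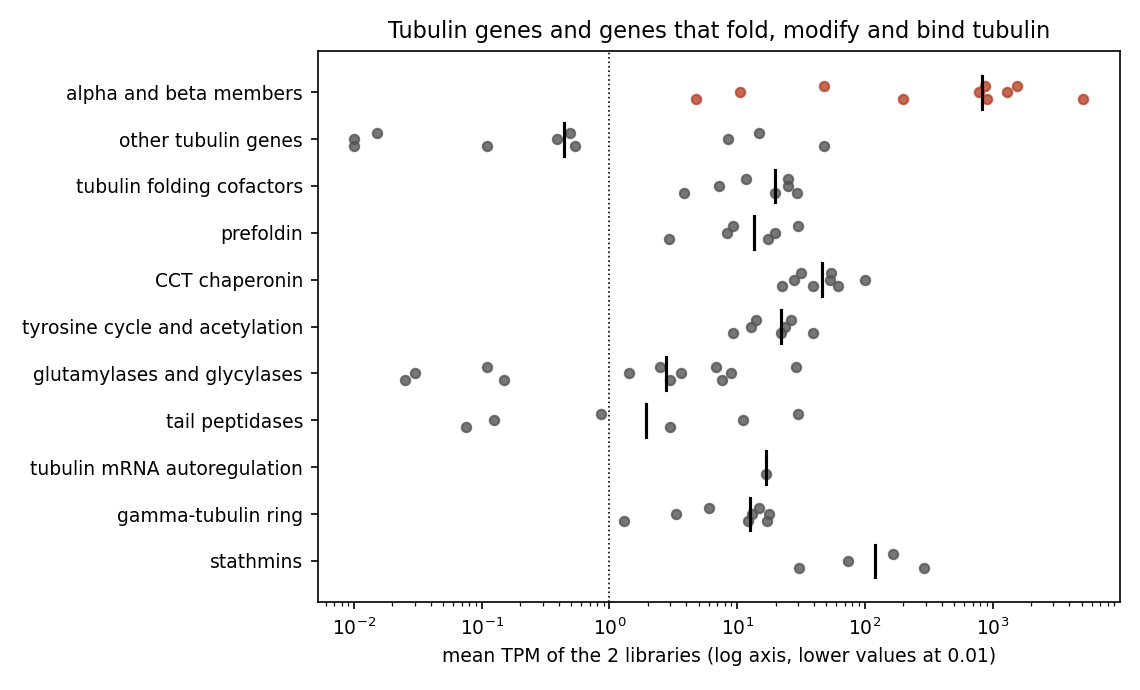
Mean TPM of the 2 libraries (log axis, values under 0.01 drawn at 0.01) of the 10 tubulin genes in red and of the genes of each list in grey, with the median as a bar and a dotted line at 1 TPM. The stathmins have the highest list median after the members, 119.6 TPM, and the other tubulin genes the lowest, 0.44 TPM.

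The coding genes nearest in level over the 2 libraries, by distance in the plane of log2(TPM + 0.1), were found for the highest member and for the neuron marker. For Tuba1a they were the histone gene Hist1h4d (4662 and 3608 TPM, distance 0.44), Nnat (2862 and 1572 TPM, 1.79) and Hist1h4c (1990 and 1410 TPM, 2.25). For Tubb3 they were Hspa8 (1068 and 744 TPM, 0.05), Rps26 (912 and 680 TPM, 0.28) and Hist1h4n (1268 and 896 TPM, 0.37). The distance rests on 2 libraries and is a description of level.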

How the data were processed

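The 2 hindbrain libraries were compared as the 1 group of the series. Per the file headers, the authors deposited expected counts (estimated fragment counts, with reads that fit several transcripts divided among them), TPM values corrected for effective length, interval bounds whose level is not stated, and the percent of a gene's TPM in each transcript. Build mm10 and GENCODE release M4 are named in the deposited file notes, and for aligner and quantifier the sources used here give no name. No source says if strand was used in counting. Totals were 54313140 and 77142270 expected counts. GENCODE M21 gave symbols, types and sequences, with 42462 of 43346 genes (98.0%) matched. Rows that name no mouse gene (1.28% and 1.09% of counts) stayed out of library sizes.

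Counts rounded to whole numbers were scaled by TMM in edgeR 4.0.16 (R 4.3.3) with a prior count of 2, for genes whose mean count was 10 or more, and the calculation was tested on simulated data. DESeq2 1.42.0 size factors, library totals and spike-in totals were alternative scalings. Counting intervals (95%) leave out biological spread and how shared reads were divided. Windows of the read length were compared as exact matches, and coding sequences were aligned globally with Biopython 1.88 (match 2, mismatch -1, gap opening -5, extension -1). Sequences of the alpha genes are not reported here. Of the 20 TPM values of members, 12 lay above the deposited interval, which centres on a posterior mean 0.486 to 1.15% lower.

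The members and lists were chosen with earlier results of these data known. The text names all members and other tubulin genes, of each list the 4 highest and 2 lowest genes and any at 0 counts, genes that share 5% or more of a member's windows, transcripts with 5% or more of a gene, and the 3 coding genes nearest to Tuba1a and to Tubb3. Ttl, the pseudogenes Gm15599, Gm16165 and Tubb4b-ps2, the minor transcripts, the overlapping genes and the cell type markers named lie outside that rule and were chosen after their values were seen.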

Additional observations from a re-analysis of the deposited data

How the results depend on the processing

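No paired analysis was possible because the series has 1 group. Of 9 neighbouring pairs of members 8 differed beyond the spread with posterior mean TPM and with lengths of release M21, and 7 with length in place of effective length and with the nearest interval bounds, where Tuba1b over Tubb5 fell short. The log2 ratio of Tubb3 over Tuba1b was -0.0526 without replicate 1 and 0.126 without replicate 2. The summed level of the members was 45768 when TPM was scaled to coding genes, against 10825 TPM, which is a change of unit. The share of all genes with a ratio of 0.5 or more in size was 11.8% at a mean count of at least 200, against 28.1%, and no member was among them under any of the scalings, prior counts or count columns tried. The alpha to beta ratio was 1.07 in expected counts, and the members' share was 3.39% in expected counts and 1.09% of the TPM of all mouse genes. Under spike-in totals the median of all genes was 0.11, and the log2 ratios between libraries of Tubb2a, Tubb3, Tubb4b and Tubb5 were 0.0725, 0.0291, 0.0195 and 0.0718, above 0 but below that median. Dividing by transcript lengths of release M21, chosen after seeing the data as were the comparison by both ends of a fragment and the members relative to the median under spike-in totals, gave log2 ratios of 1.59 for Tuba1a over Tubb2a and 0.29 for Tubb2b over Tubb3. When both ends of a fragment of 306 nt had to be shared, the shared part was 42.003% for Tuba1b, 32.6% for Tuba1c, 25.1% for Tubb2a, 17.4% for Tubb2b, 15.6% for Tuba1a and 10.5% for Tubb4b. Length in place of effective length gave log2 ratios of 0.08 for Tuba1b over Tubb5, 2.10 for Tubb5 over Tubb4b, 1.95 for Tubb4b over Tubb4a and 2.21 for Tubb4a over Tuba1c, and the last was 2.07 with the nearest interval bounds. At a minimum of 5 TPM 4 glutamylases and glycylases were detected in place of 8, and at 0.1 TPM 6 other tubulin genes in place of 3. Low counts limit Tubb6 most, with 717 and 820 counts.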
